A study of Mus musculus with 1392 samples.

Results

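The neighbouring genes Vwf and Cd9 on mouse chromosome 6 were described from single-cell ATAC-seq counts, in which a transposase cuts open chromatin and each deposited peak is a stretch where such cuts gather. The region was taken as the peaks overlapping positions 125400000 to 125660000 of the mouse build mm9, with Cd9 at about 125410000 to 125445000 and Vwf at about 125497000 to 125637000. It held 42 of the 115295 peaks in the table, of which 17 lay in Vwf, 9 in Cd9, 14 between the genes and 2 beyond the far end of Vwf. The cells were haematopoietic stem cells of C57BL/6 mice, from bone marrow, sorted by the submitters as LSK (lineage-negative, Sca-1 and Kit positive), CD150+, CD48-, CD34- and Vwf+. Old cells numbered 1060 in 3 numbered sets (old 1, old 2 and old 3), and young cells numbered 332 in 2 sets (young 1 and young 2). The labels give neither the ages in numbers nor the animals behind a set. With each set as 1 replicate, the p-values speak only to set-to-set spread, which may be technical. Since every set is of a single age, age cannot be told apart from how its sets were prepared. The study asked whether the makeup of this stem cell population shifts with age.

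Vwf encodes von Willebrand factor, a large blood protein made by endothelial cells and megakaryocytes, which tethers platelets to damaged vessels and carries clotting factor VIII. In the stem cell compartment of mouse bone marrow, Vwf marks cells primed towards the platelet lineage. Cd9 encodes a tetraspanin, a membrane-spanning protein that organises other surface proteins, is abundant on megakaryocytes and platelets and is also found on stem cells. The genes are transcribed away from each other, so the stretch between them lies upstream of both. RefSeq (GRCm38.p6) lists the long non-coding RNAs Gm28809, Gm26728 and Gm33144 between Cd9 and Vwf, and Ano2, a calcium-activated chloride channel gene, after Vwf. Because cells of both ages were selected for Vwf, open chromatin at Vwf in both may be part of the selection, which was not tested. The labels do not say how Vwf positivity was read. Markers of the sort other than Vwf lie outside the region and were not analysed here.

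Total counts per set ran from 1159957 in young 1 to 4181770 in old 1, and the median cell held between 3604.5 counts in old 3 and 11807 in young 2. Old 1 stood apart in having 84 of its 306 cells under 1906 counts, against 4 to 34 cells in each of the other sets. Values per peak are given as CPM, counts scaled to a common set total with TMM composition factors, and shares of cells are given after cells with at least 1906 counts were thinned to that number. Shallower cells, 84, 13 and 34 in the old sets and 4 and 5 in the young sets, are missing from the thinned shares. Intervals on shares of cells are 95% Clopper-Pearson intervals and cover counting error only.

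The region was densely supplied with peaks. When the genome was divided into bins of the same 260 kb length, the 8605 bins with a peak held a median of 11, and 98.6% of them held fewer than the 42 found here. The summed accessibility of the region, 444.8 CPM on average over the 5 sets, was above that of 96.8% of these bins, which had a median of 88.1 CPM. The peaks themselves were of ordinary size, with a median mean level of 4.57 CPM against 4.38 CPM for the whole table and a median width of 435 bp against 417 bp. Most of the signal belonged to a few wide peaks inside the genes, as the plot along the region shows. Vwf held 3071 of the 4626 counts of the region, Cd9 held 1016, the stretch between them held 474 and the 2 peaks beyond Vwf held 65.

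**Figure D1:**
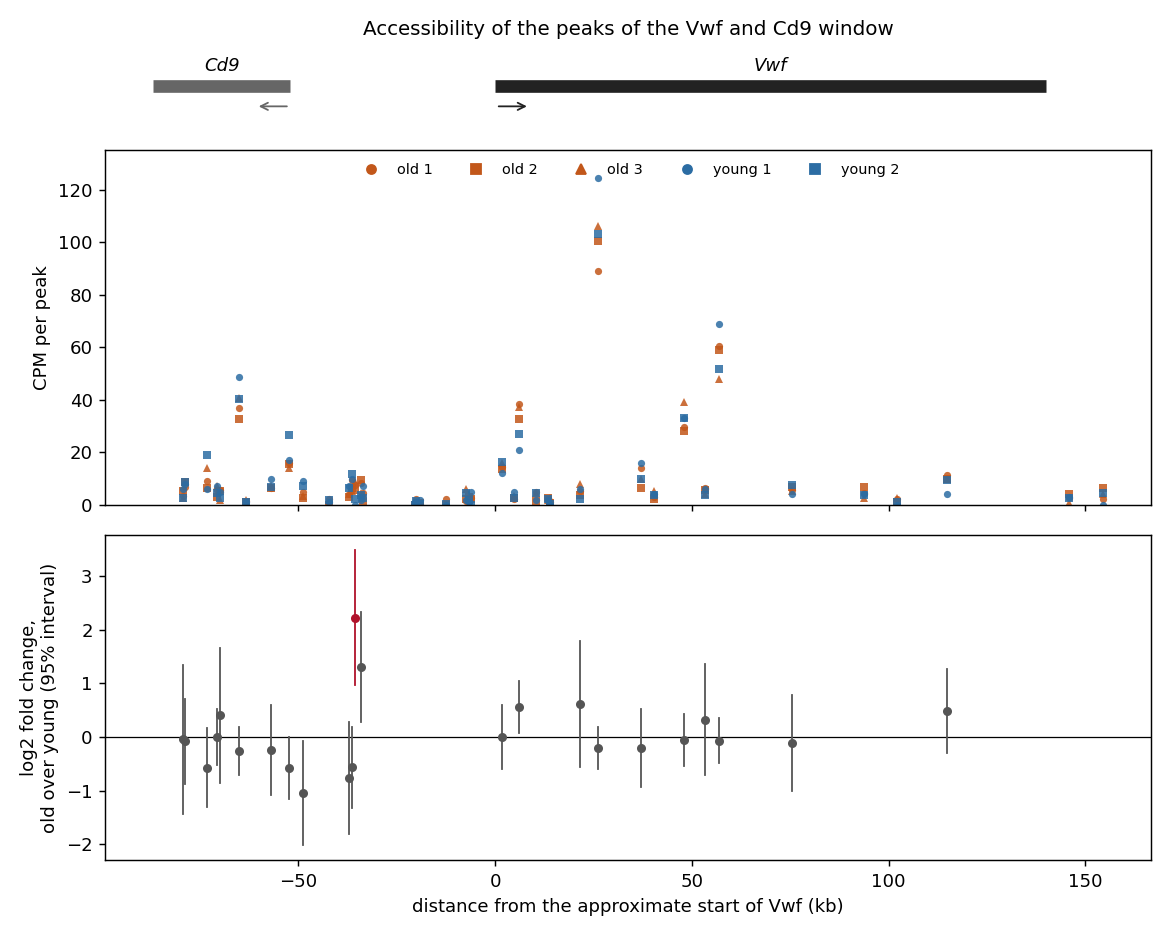
The upper panel plots the CPM of all 42 peaks in each of the 5 sets (old 1 to 3 in orange, young 1 and 2 in blue) against distance in kb from the approximate start of Vwf, with the gene intervals and their directions of transcription above. The lower panel plots the log2 fold change of old over young for the 23 tested peaks with its approximate 95% interval. The 1 peak called (red, 2.23) lies between the genes at 35.7 kb before the Vwf start.

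No difference in the summed accessibility of Vwf was detected between old and young cells. The 17 Vwf peaks together had 294.8, 283.4 and 306.8 CPM in the old sets, and 311.8 and 281.8 CPM in the young sets. The old sets all lay between both young sets. The mean was 295.0 ± 11.7 CPM in old (SD, n = 3) and 296.8 ± 21.2 CPM in young sets (SD, n = 2). The log2 fold change of old over young was -0.0061 (standard error, SE, 0.19, edgeR quasi-likelihood test with Benjamini-Hochberg adjustment over the whole table, adjusted p = 0.993). Its 95% interval ran from -0.38 to 0.36, so that a ratio of old to young below 0.770 or above 1.29 lay outside it. The sign of so small a value flipped under several settings, among them scaling to library totals (0.072).

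Cd9 had somewhat lower values in old cells, a difference that did not pass the test across the table. Its 9 peaks together had 91.3, 84.4 and 98.3 CPM in the old sets, and 108.6 and 111.7 CPM in the young sets. Every old set was below both young sets, with means of 91.3 ± 6.94 CPM in old and 110.2 ± 2.22 CPM in young sets. The log2 fold change was -0.27 (SE 0.19, edgeR adjusted p = 0.534), with an approximate 95% interval of -0.66 to 0.11. By exact permutation over the 10 ways to split the sets, the two-sided p was 0.1, the smallest such a design can give. Whether fewer cells had Cd9 open or each cell had it less open cannot be told apart from the sums. The stretch between the genes had 51.4, 35.9 and 41.8 CPM in the old sets, against 47.8 and 44.0 CPM in the young sets, and the ages overlapped (log2 fold change -0.059, SE 0.22, edgeR adjusted p = 0.939). With thinned cells its log2 fold change was -0.47 (SE 0.35, edgeR adjusted p = 0.697), and 6.76%, 5.45% and 6.76% of thinned cells in the old sets had a count there, against 9.60% and 7.53% in the young sets. Those shares were lower in every old set, unlike the CPM. The 2 peaks beyond Vwf, on the side of Ano2, were faint, with 4.98, 10.4 and 4.65 CPM in the old sets and 2.99 and 7.18 CPM in the young sets.

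**Figure D2:**
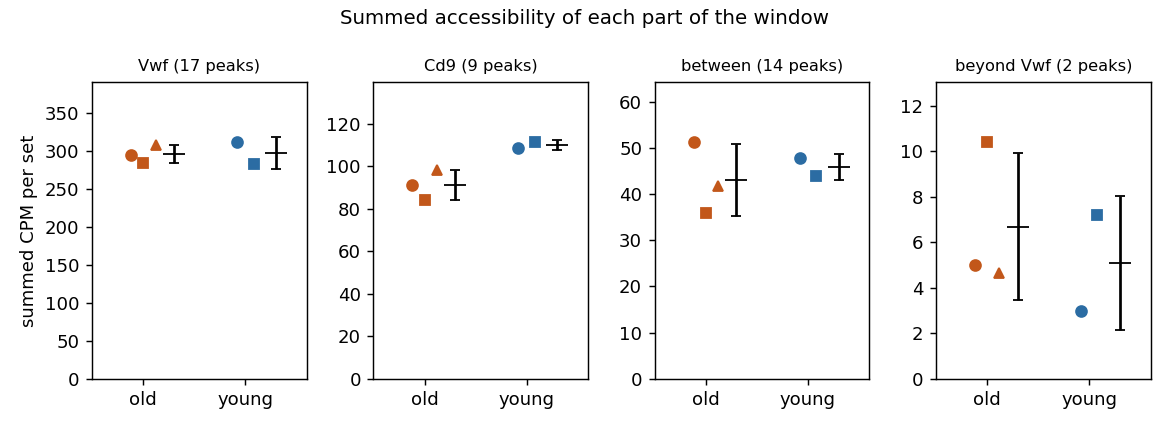
Summed CPM of the peaks in each part of the region, with old sets left of young sets, 1 point per set and the mean with its SD at the right of each group. The Vwf sets overlap between ages around 295 CPM, while the 3 old sets lie below both young sets for Cd9.

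The ratio of Vwf to Cd9 counts within a set needs no scaling between libraries and sets the genes against each other. The ratio was 3.23, 3.36 and 3.12 in the old sets, and 2.87 and 2.52 in the young sets. All old sets were above both young sets. The mean ratio was 3.24 ± 0.118 in old sets and 2.70 ± 0.247 in young sets, and the log2 ratios differed by 0.27 (exact two-sided permutation p = 0.1, the smallest possible, and 0.15 after adjustment over 3 such comparisons). This difference could not pass 0.05 with 5 sets. With the Vwf sums close between ages (log2 fold change -0.0061), it restates the lower Cd9 sums and is not a separate result.

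Peak by peak, 23 of the 42 peaks had enough counts to be tested, and the other 19 held 3 to 46 counts each. Of the 23, 1 was called at an adjusted p under 0.05, which is 4.35%, while 3.17% of all 58167 tested peaks were called, 1.39% higher and 1.78% lower in old. The called share was thus near that of the table as a whole. At an unadjusted p under 0.05 there were 4 of the 23, against 15.4% of all tested peaks. Old and young sets were fully separated at 8 of the 23 peaks, 4 with every old set above and 4 with every old set below, or 34.8%, against 33.2% of all tested peaks (16.4% above and 16.7% below). The median log2 fold change was -0.065 over the 23 peaks and -0.0089 over all tested peaks. Within Vwf, 10 peaks were tested, 4 with fold changes above 0 and 6 below, from -0.20 to 0.62. Within Cd9, 8 were tested, 2 above 0 and 6 below, from -0.57 to 0.41. None of these 18 peaks inside the genes was called by edgeR, and DESeq2 called none of the region's peaks. Among these 18 the unadjusted p was under 0.05 at 1, a Vwf peak.

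The accessibility of Vwf was carried by its first part. With the gene interval cut into 4 equal stretches along the direction of transcription, the first held 8 peaks and 55.4% of the Vwf counts, the second 5 peaks and 37.2%, the third 3 peaks and 4.10%, and the last 1 peak and 3.32%. The longest stretch of the whole region without a peak, 30.6 kb, spanned the end of Vwf. Counts within Cd9 were spread more evenly, with 25.6%, 41.0%, 21.4% and 12.0% from the first to the last stretch.

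The strongest peak of the region lay inside Vwf at 125522339 to 125523956, about 26.1 kb downstream of the approximate start. It had 89.2, 100.5 and 106.2 CPM in the old sets, and 124.5 and 103.2 CPM in the young sets. Its mean level exceeded that of 99.8% of all peaks in the table, and 550 of the 1392 cells had a count there. Old values were a little lower on average, but the ages overlapped, with a log2 fold change of -0.20 (SE 0.20, edgeR adjusted p = 0.686). Its 5 highest cells gave 4.20% of its counts.

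The second strongest Vwf peak lay at 125553166 to 125554810, about 57.0 kb into the gene. It had 60.6, 58.9 and 47.8 CPM in the old sets, and 68.7 and 51.6 CPM in the young sets. The next, at 125544618 to 125545509, had 29.6, 28.1 and 39.2 CPM in the old sets, and 32.9 and 33.2 CPM in the young sets. At both peaks the ages overlapped. Their log2 fold changes were -0.065 and -0.055 with standard errors of 0.21 and 0.24 (edgeR adjusted p = 0.927 and 0.948).

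Near the start of Vwf, 2 peaks are described. The gene limits used are approximate: RefSeq gives Vwf a length of 133732 bp in GRCm38.p6, which is 6.27 kb less than the interval used here, so the start may lie up to 6.27 kb further in. The 2 peaks begin 1.433 and 5.655 kb after the start as taken here, so neither covers that position. If the far end of the interval is exact, the start lies 6.27 kb further in, inside the second of these peaks. The first would then lie upstream of the gene. Since both ends are approximate, whether either covers the true start was not determined. The peak nearest the start as taken here, at 125498433 to 125498907, had 14.4, 13.5 and 15.9 CPM in the old sets, and 12.0 and 16.2 CPM in the young sets. Its log2 fold change was -0.0015 (SE 0.30, edgeR adjusted p = 0.999). The old sets lay within the range of the young sets.

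The wider peak at 125502655 to 125503454 was chosen for description after its values were seen. It had 38.6, 32.8 and 37.2 CPM in the old sets, and 20.9 and 26.9 CPM in the young sets. Every old set was above both young sets, and the log2 fold change was 0.56 (SE 0.25). It did not pass the test across the table (edgeR adjusted p = 0.251, and 0.166 to 0.827 under the alternatives). After thinning, 8.56%, 5.45% and 6.47% of old cells had a count there, against 4.52% and 3.42% of young cells.

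The share of the Vwf counts held by each peak needs no scaling between sets. The peak at 125502655 held 13.1%, 11.6% and 12.1% of the Vwf counts in the old sets, against 6.71% and 9.55% in the young sets. The strongest peak, at 125522339, held 30.2%, 35.5% and 34.6% in the old sets, against 39.9% and 36.6% in the young sets. For both the ages did not overlap, with differences of 4.13 and -4.83 percentage points between the old and young means. Of the 26 peak shares in both genes, 5 did not overlap between ages, 4 with old above and 1 with old below. Among these were the untested peaks at 125510750, 125599068 and 125433491, with only 10, 17 and 13 counts in all sets. Such shares were not taken for other genes, so this number is no result about Vwf or Cd9. By CPM, the ages did not overlap at 33.2% of all tested peaks. As shares of the same total, the values of a gene's peaks are not independent of each other. For the peaks at 125502655 and 125522339 the exact two-sided permutation p was 0.1 and 0.2. Over the 26 such comparisons in both genes no adjusted p was below 0.867.

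**Figure D3:**
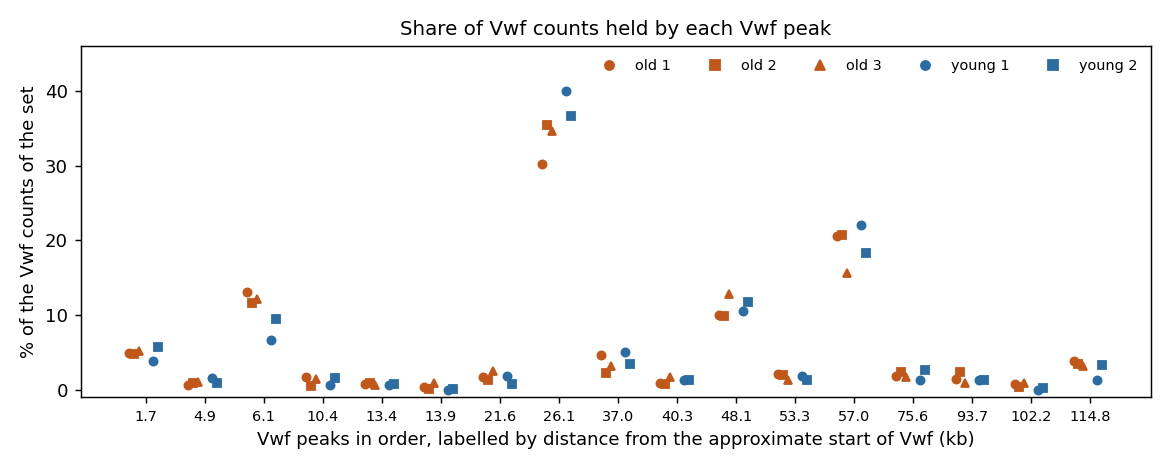
Percentage of the Vwf counts of a set that fell in each of the 17 Vwf peaks, ordered by distance in kb from the approximate start, with 1 point per set. The peak at 6.1 kb is higher in all old sets (11.6% to 13.1%) than in both young sets (6.71% and 9.55%), and the peak at 26.1 kb is lower in all old sets.

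Cd9 was the gene of the pair with a promoter sequence in the RefSeq table used here (GRCm38.p6). It is shown because a peak of the region covers the approximate start of Cd9. The sequence runs from 250 bases before to 50 after the RefSeq start, at chr6:125494711-125495010 on the minus strand of GRCm38.p6. That numbering differs from mm9 and was not converted. Capitals mark matches on either strand to GGAAG (ETS factors), CANNTG (E-box factors) and CCGCCC (SP and KLF factors).
Cd9 promoter: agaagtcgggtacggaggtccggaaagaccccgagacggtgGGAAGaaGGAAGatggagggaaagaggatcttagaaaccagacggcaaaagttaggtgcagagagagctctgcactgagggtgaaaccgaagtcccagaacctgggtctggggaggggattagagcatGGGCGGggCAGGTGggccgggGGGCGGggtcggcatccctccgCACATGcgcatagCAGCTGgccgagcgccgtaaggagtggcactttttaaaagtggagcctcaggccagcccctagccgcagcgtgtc
There were 2 matches to GGAAG, near the upstream end, 3 to CANNTG, at -73, -38 and -25 from the start, and 2 to CCGCCC, at -81 and -60, with no overlap between motifs. Of the 32851 RefSeq promoters of this length, 71.4% held GGAAG, 72.3% CANNTG and 35.7% CCGCCC, so these matches are common. The letters GATAA (GATA factors), TGTGGT (RUNX factors), TGANTCA (AP-1) and CCAAT (NF-Y) were not in this window, and 25.4%, 16.8%, 7.81% and 37.4% of all promoters held them. G and C made up 61.3% of the sequence, against a mean of 53.8% over all promoters.

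The peak over the Cd9 start, at 125444115 to 125445342, had 15.7, 15.6 and 13.9 CPM in the old sets, and 16.9 and 26.5 CPM in the young sets. All old sets were below both young sets, young 2 standing well above the rest. The mean was 15.1 ± 1.00 CPM in old and 21.7 ± 6.75 CPM in young sets, and the log2 fold change was -0.57 (SE 0.29), which was not called (edgeR adjusted p = 0.335). Its size rested on young 2, since it was -0.12 without young 2 and -0.79 without young 1 (edgeR adjusted p = 0.949 and 0.254). The strongest Cd9 peak lay 13.2 kb into the gene, at 125430952 to 125432702. It had 37.0, 32.8 and 40.5 CPM in the old sets, and 48.8 and 40.4 CPM in the young sets. Old 3 overlapped the young sets there, and the log2 fold change was -0.26 (SE 0.23, edgeR adjusted p = 0.639).

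The next Cd9 peak, at 125423367 to 125424123, varied widely between sets of the same age. It had 8.92, 6.25 and 13.9 CPM in the old sets, and 5.98 and 18.8 CPM in the young sets. Its log2 fold change was -0.57 with all sets and 0.68 without young 2, so its direction rested on that set. The difference was not called in either case (edgeR adjusted p = 0.494 and 0.748).

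The 1 peak of the region that was called, with higher values in old cells, lay between the genes at 125461120 to 125461578. This is 16.3 kb upstream of the approximate start of Cd9 and 35.7 kb before that of Vwf. It had 7.61, 5.73 and 8.63 CPM in the old sets, and 0 CPM in young 1 and 2.24 CPM in young 2. Every old set was above both young sets, with a mean of 7.32 ± 1.47 CPM in old and 1.12 ± 1.59 CPM in young sets. The log2 fold change was 2.23 (SE 0.64, edgeR adjusted p = 0.0376).

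That call rested on few reads. The old sets held 53 counts in 50 cells and the young sets 5 counts in 5 cells, all in young 2. In young 1, a count of 0 among 1159957 allowed up to 3 counts. The peak passed the filter on low counts through its old sets, where it was high. It was no longer called without old 2 (edgeR adjusted p = 0.072), without old 3 (0.152), without young 1 (0.196) or with the set number as a block (0.132). It was not tested without old 1, with thinned cells or at the higher count minimum, and DESeq2 gave it no adjusted p. Without young 2, where the call stood, no young count was left and no fold is given.

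The called peak belonged to a run of 5 close peaks spanning 3.71 kb, from 125459824 to 125463536, and its neighbours did not share one direction. The next peak towards Vwf, at 125462578 to 125463101, had 8.13, 9.38 and 4.65 CPM in the old sets, and 1.99 and 3.59 CPM in the young sets. All old sets were above both young sets, with a log2 fold change of 1.30 (SE 0.52), which was not called (edgeR adjusted p = 0.183). It held 31, 18 and 7 counts in the old sets, and 2 and 8 in the young sets. This peak too passed the filter on low counts through old sets, where it was high, so the filter favoured its direction. The next peak towards Cd9, at 125460355 to 125461009 and only a short gap away, had 9.44, 6.25 and 5.31 CPM in the old sets, and 9.96 and 11.7 CPM in the young sets. There all old sets were below both young sets, with a log2 fold change of -0.56 (SE 0.39, edgeR adjusted p = 0.516).

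Of these, the 2 peaks with positive fold changes held 60, 29 and 20 counts in the old sets, and 2 and 13 in the young sets. The 2 with negative fold changes held 52, 18 and 14 counts in the old sets, and 17 and 40 in the young sets. The ratio of the first pair to the second was 1.15, 1.61 and 1.43 in the old sets, against 0.118 and 0.325 in the young sets. These pairs were put together after their values were seen, so the ratio is a description and was not tested. Both peaks of the first pair passed the filter on low counts through old sets, where they were high. In the second pair, the peak at 125459824 passed it through its young sets. All 5 peaks together had 33.8, 25.5 and 26.6 CPM in the old sets, against 25.9 and 26.5 CPM in the young sets, and so overlapped.

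**Figure D4:**
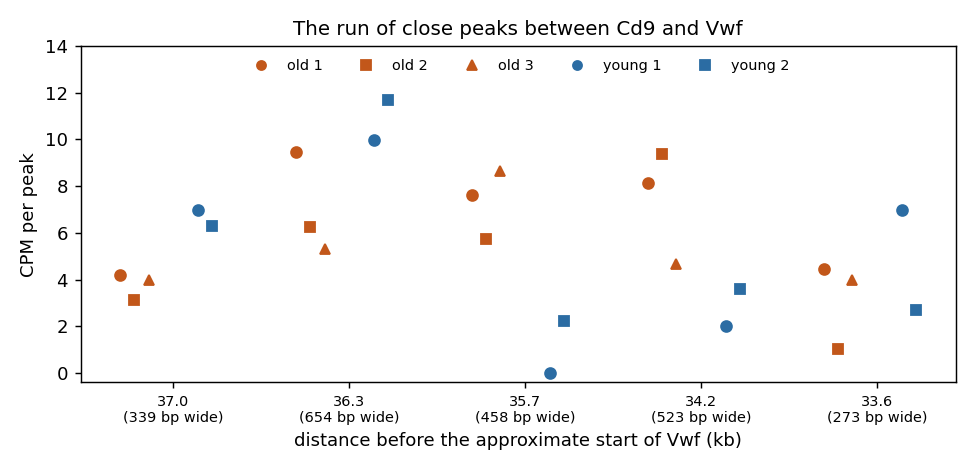
CPM in each set at the 5 close peaks between Cd9 and Vwf, labelled by distance in kb before the approximate start of Vwf and by width, with old sets at the left of each position. The first 2 peaks are lower in all old sets, the next 2 are higher in all old sets, and at the last the ages overlap.

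Closer to Cd9, the peak at 125448082 to 125448454, 3.27 kb upstream of the approximate Cd9 start, was lower in all old sets. It had 4.72, 2.60 and 3.32 CPM in the old sets, and 8.97 and 7.18 CPM in the young sets. The log2 fold change was -1.05 (SE 0.50) and was not called (edgeR adjusted p = 0.295). It held 18, 5 and 5 counts in the old sets, and 9 and 16 in the young sets. This peak passed the filter on low counts through its young sets, where it was high, so the filter favoured its direction. The 2 peaks beyond Vwf were not tested. They lay at 125642732 to 125643161, with 2.62, 4.17 and 0.664 CPM in the old and 2.99 and 2.69 CPM in the young sets, and at 125651268 to 125651728, with 2.36, 6.25 and 3.98 CPM in the old and 0 and 4.49 CPM in the young sets.

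Counted over cells, 953 of the 1392 cells (68.5%) had a count in a Vwf peak and 526 (37.8%) in a Cd9 peak. These shares are not matched for depth. Without thinning, Vwf had a count in 71.2%, 65.8% and 60.2% of cells in the old sets, and in 72.9% and 84.8% of cells in the young sets. Among the cells deep enough to be thinned to 1906 counts, which leaves out the most cells in old 1, the sets were close. Vwf then had a count in 41.9% of cells in old 1 (35.3% to 48.7%), 38.4% in old 2 (33.4% to 43.6%) and 38.2% in old 3 (33.0% to 43.6%). In the young sets it was 42.4% of cells in young 1 (35.0% to 50.0%) and 40.4% of cells in young 2 (32.4% to 48.8%). The means were 39.5% ± 2.06 in old and 41.4% ± 1.39 in young sets, and the ages overlapped (exact two-sided permutation p = 0.3).

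For Cd9 the thinned shares were 14.0%, 14.4% and 13.5% in the old sets, and 17.5% and 17.8% in the young sets. All old sets were below both young sets, a difference of -3.68 percentage points between the means, old minus young (exact two-sided permutation p = 0.1, the smallest possible, and 0.15 adjusted over 3 comparisons). The binomial intervals were wide, from 9.69% to 19.2% in old 1 and from 12.0% to 25.0% in young 2. Without thinning the Cd9 share overlapped between ages, at 45.4%, 30.0% and 28.1% in the old and 42.0% and 60.9% in the young sets. A lower thinned share was not particular to Cd9, as that between the genes was also lower in every old set. The share for any peak of the region includes the Cd9 peaks. It was 52.7%, 50.7% and 51.2% of thinned cells in the old sets, and 58.8% and 56.2% in the young sets. For that share and the one between the genes the exact two-sided permutation p was 0.1, outside the adjustment over 3 comparisons.

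The number of Vwf peaks with a count in a cell had a similar spread in all 5 sets. Of thinned cells, 58.1%, 61.6% and 61.8% in the old sets and 57.6% and 59.6% in the young sets had no count in any of the 17 Vwf peaks. Exactly 1 Vwf peak had a count in 36.5%, 31.1% and 30.3% of cells in the old sets and in 35.6% and 34.2% in the young sets. The mean number of Vwf peaks with a count per thinned cell was 0.491, 0.469 and 0.471 in the old sets, and 0.492 and 0.486 in the young sets. At this depth a cell without a count cannot be called closed.

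**Figure D5:**
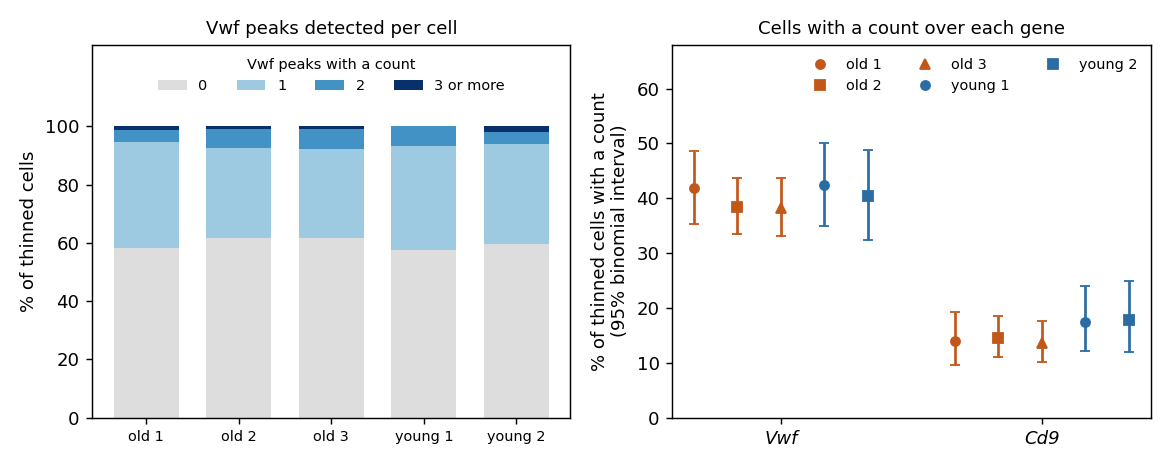
At the left, the percentage of thinned cells in each set with 0, 1, 2 and 3 or more Vwf peaks carrying a count. At the right, the percentage of thinned cells with any count over Vwf and over Cd9, with 95% binomial intervals, where the Vwf values lie between 38.2% and 42.4% and the Cd9 values between 13.5% and 17.8%.

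Cells with counts over both genes were set against the number that the product of the separate shares gives. In thinned cells, both Vwf and Cd9 had a count in 16, 20 and 14 cells of the old sets, where the product of the shares gives 13.0, 20.4 and 17.6. In the young sets there were 13 and 11 such cells, where the product gives 13.1 and 10.5. The 2 leading Vwf peaks were found together in 2, 5 and 3 cells of the old sets, where the product gives 2.88, 5.23 and 3.88, and in 4 and 2 cells of the young sets, where it gives 3.6045 and 2.30. The thinned numbers lay on either side of the product. Without thinning, both genes had a count in 129, 86 and 66 cells of the old sets, where the product gives 99.0, 75 and 63.2, and in 60 and 82 cells of the young sets, where it gives 55.4 and 78.0. All 5 sets were then above the product. The 2 leading Vwf peaks were found together in 87, 28 and 24 unthinned cells of the old sets, where the product gives 59.9, 25.2 and 17.2. In the young sets there were 16 and 45 such cells, where it gives 16.8 and 39.6, so that young 1 lay below the product. The unthinned cells are not matched for depth, and what part depth plays in these numbers was not tested.

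No peak among those searched followed the strongest Vwf or Cd9 peak closely from cell to cell. Among 8084 peaks found in at least 5% of thinned cells, the one most like the leading Vwf peak lay on chromosome 10 at 81459334 to 81460386, with a phi coefficient of co-detection of 0.116 on average over the 5 sets and 0.023 to 0.192 in single sets. The next lay on chromosome 15 at 101930466 (0.111, and -0.073 to 0.245 in single sets) and chromosome 13 at 45486887 (0.102, -0.079 to 0.216). For the leading Cd9 peak they lay on chromosome 5 at 34678318 (0.152, -0.062 to 0.324) and chromosome 16 at 91484778 (0.145, -0.064 to 0.337). The third lay on chromosome 6 at 83816814 (0.118, 0.017 to 0.251). These are the highest of many weak values from sparse counts, given as a description with no test. None is a peak of the region, but most peaks of the region fell below the 5% and were not searched.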

How the data were processed

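Per the values, the deposited counts are whole numbers per peak and cell that the authors left unnormalized. Trim Galore, FastQC, Bowtie2, SAMtools, Picard and the build mm9 are listed in the submitters' processing notes, with no version. The peak caller, counting method, cut-site shift and whether peak starts count from 0 or 1: not given in the sources used here.

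Every column matched the title of 1 cell. Counts were summed per set and tested over the whole table with edgeR 4.0.16 in R 4.3.3 (TMM, filterByExpr minimum count 10, robust quasi-likelihood, adjusted p under 0.05), checked on simulated counts. DESeq2 1.42.0 was an alternative. Sums over Vwf, Cd9, between and beyond replaced their peaks in a separate fit, with gene intervals widened by 2000 bp. Standard errors (SE) are the fold change over the root of F, and intervals span 1.96 SE each way. These are somewhat narrower than the F test implies. At 125444115 the interval, -1.15 to -0.0024, left out 0 at an unadjusted edgeR p of 0.054. Permutations cover 10 splits.

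Described peaks are those called, the 3 highest by mean CPM in each part and those nearest the gene starts, plus 125502655 and the run of close peaks, chosen after their values were seen. Region, lists and tests were chosen with earlier results of these data known.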

Additional observations from a re-analysis of the deposited data

How the results depend on the processing

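The 1 call in the region fell to 0 with the set number as a replicate block and with 1 old set left out. Without old 1, at a minimum count of 30 and with thinned cells that peak was not tested, so the absence of a call there is no failed test. DESeq2 made no call in the region (423 calls in the whole table against 1844) and gave that peak no adjusted p. The call stood with library totals, no count filter, binarized counts and shallow cells left out. The ages share the numbers 1 and 2, yet same-numbered sets had correlations of deviation of -0.076 and -0.00084, so they were not taken as pairs. Under the block the log2 fold changes were -0.036 for Vwf, -0.33 for Cd9, -0.094 between the genes and 0.59 beyond Vwf. The near-zero Vwf value turned to 0.072 with library totals, 0.0090 with no filter, 0.082 at a minimum count of 30, 0.18 with binarized counts, 0.027 with thinned cells and 0.018 without shallow cells, and ran from -0.051 to 0.073 with 1 set left out. That between the genes turned to 0.020 with library totals and 0.029 at a minimum count of 30, moved to -0.47 with thinned cells, and ran from -0.20 to 0.068 with 1 set left out. Beyond Vwf the range was -0.13 to 1.14. None of these was called. The cause of the turns was not tested. Cd9 kept its direction throughout, from -0.29 to -0.20 with 1 set left out, as did the difference in the Vwf to Cd9 ratio (0.17 to 0.36) and in the thinned shares of cells for Vwf (-3.06 to -0.90 points) and Cd9 (-3.91 to -3.46 points). Widening the gene intervals changed no peak's assignment. Of 139 values for 12 described peaks under alternatives, 115 kept direction and side of the threshold, and 20 at 5 peaks turned sign without a call. These were 0.077, 0.0065, 0.26, 0.044 and 0.015 at 125498433 (library totals, no filter, binarized, shallow cells out, DESeq2), 0.078 at 125522339 (binarized), 0.024, 0.033 and 0.24 at 125544618 (library totals, minimum 30, binarized), 0.012, 0.022 and 0.0060 at 125553166 (library totals, minimum 30, block), and those with 1 set left out, whose ranges were -0.996 to 0.68 at 125423367, -0.14 to 0.31 at 125498433, -0.16 to 0.045 at 125544618 and -0.26 to 0.13 at 125553166.
Library totals moved the median log2 fold change of all tested peaks to 0.069. The young sets are 2 and most peaks of the region hold under 100 counts, and a difference of the size seen at Cd9 was not resolved.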
